A study of Mus musculus with 12 samples.

Results

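Box H/ACA snoRNAs are small nucleolar RNAs that fold into a pair of hairpins joined by a hinge with the sequence box H and followed by a tail with the sequence ACA. With the proteins dyskerin, Nop10, Nhp2 and Gar1 they guide the conversion of uridine to pseudouridine in ribosomal RNA, and most are cut out of the introns of host genes. Fragments of them occur among the short RNAs of many cells. The members described here were 57 features of the table whose symbol begins with Snora or SNORA and which held 15 or more reads of 20 to 24 nt in the sum of all 12 libraries. The table listed 1031 such features among 32101, of which 928 had no read and 46 had between 1 and 14 reads. The members were selected on their reads in these same libraries, so their abundance is a description.

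Small RNA-seq was made from mouse embryonic stem cells (ESCs), labelled as ESC with background strain E14 in all groups. The 6 WT libraries are labelled Wildtype and came in 3 pairs, the 2 Dnmt1 KO libraries are labelled Dnmt1 -/- and formed 1 pair, and the 4 Dicer/Dnmt1 KO libraries are labelled Dicer/Dnmt1 -/- and formed 2 pairs. Dnmt1 encodes the methyltransferase that maintains DNA methylation at replication, and Dicer encodes the ribonuclease that releases miRNAs and endosiRNAs from their precursors. Per the study's methods, Dnmt1 was deleted in loxP/loxP ESCs of strain C57BL/6, and in lines derived from them, by a Cre enzyme that a drug switches on. Cells were grown with or without feeder cells. In some derived lines this Cre also deleted Dicer, while in others Dicer had been removed beforehand by genome editing. The labels do not say which kind gave the Dicer/Dnmt1 KO libraries. They give neither the days after deletion nor the feeders for any library. The study names uninduced cells of the line with loxP sites in both Dicer and Dnmt1 as its WT for small RNAs of these knockouts, but the labels do not tie the WT libraries used here to that line. If they came from another line, line and genotype cannot be told apart in comparisons with WT. Libraries with the same number differ in the letter A or B and are called a culture here, but it is not stated whether A and B were grown separately, and p-values measure only the spread between these libraries. WT culture 2 is the pair titled E14 2, without a genotype in its title.

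Library reads ran from 8710 in Dicer/Dnmt1 KO 1B to 245184 in WT 1A, and 1 read was worth 115 and 4.08 RPM in them, where RPM is reads scaled by the authors to the size of the library. WT held 64.3% of all reads, so a feature abundant only in a knockout had less chance to reach 15 reads. Reads inside the Dicer1 gene were 0 to 3 per library. Those inside Dnmt1 were 0 to 18 in WT libraries, or 0 to 110.3 RPM, and 8 and 9 in the Dnmt1 KO pair, or 118 and 83.6 RPM, so no fall is seen there, and the Dicer/Dnmt1 KO libraries had 2 to 6, or 39.8 to 229.6 RPM. The whole gene was counted, so these reads do not separate its deleted part and do not check the labels. Of 10 tested miRNAs of the Mir290 to Mir295 and Mir302 clusters, which mark ESCs, limma called 10 lower at an adjusted p under 0.05 when Dicer/Dnmt1 KO was set against WT, with a median log2 fold change of -5.39, and 0 for Dnmt1 KO. The clusters differed in Dnmt1 KO against WT. Mir302a, Mir302b and Mir302d were at -2.18, -1.78 and -1.56 (adjusted p 0.122, 0.437 and 0.299 in limma). Those of Mir290 to Mir295 ran from -0.92 (Mir291b) to 1.54 (Mir290). WT libraries held 28683 to 93275 RPM of both clusters in sum. The range was 55926 to 99648 RPM for Dnmt1 KO, but 1221 to 3797 RPM for Dicer/Dnmt1 KO. Dicer makes these miRNAs, so in that group their level does not check the cell type. The sum of 8 fibroblast markers was 333 to 1115 RPM in WT libraries. Dnmt1 KO had 5364 to 7053 RPM, Dicer/Dnmt1 KO had 4466 to 15072 RPM, and nearly all of it was Mir143. Of the 8 markers, 3 had a read in WT, 3 in Dnmt1 KO and 7 in Dicer/Dnmt1 KO. Col1a1, Col1a2 and Col3a1 had 0 reads in WT and in Dnmt1 KO and 4, 3 and 1 reads in Dicer/Dnmt1 KO. The part of other cells in the results below was not tested, and in these bulk samples fewer cells of a type and less RNA per cell cannot be told apart.

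Shown are the sequences of Snora52, Snora31 and Snora17, which follow Snora62 in reads, and of SNORA76, the member called in a comparison. They were read 5′ to 3′ on the gene's strand from mouse genome build NCBIM37, the build of the files. Capitals mark the match to box H (the letters ANANNA) in the middle part of the RNA that lies nearest its centre, and the last ACA that ends within the final 6 bases.
Snora52, chr7:148634702-148634838, plus strand: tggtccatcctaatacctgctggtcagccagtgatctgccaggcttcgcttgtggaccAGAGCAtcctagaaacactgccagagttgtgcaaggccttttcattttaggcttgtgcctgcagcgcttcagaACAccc
Snora31, chr14:76247712-76247841, plus strand: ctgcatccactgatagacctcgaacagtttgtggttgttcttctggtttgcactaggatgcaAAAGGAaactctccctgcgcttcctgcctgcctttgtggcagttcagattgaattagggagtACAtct
Snora17, chr2:26494710-26494841, minus strand: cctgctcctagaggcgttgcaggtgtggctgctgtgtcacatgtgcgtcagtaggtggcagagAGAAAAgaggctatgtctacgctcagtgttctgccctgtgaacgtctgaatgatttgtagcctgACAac
SNORA76, chr11:106362557-106362691, plus strand: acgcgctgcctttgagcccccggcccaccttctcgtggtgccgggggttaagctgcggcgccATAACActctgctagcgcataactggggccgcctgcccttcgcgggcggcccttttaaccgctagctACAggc
Each of the 4 holds a match to both boxes, and Snora17 holds 3 matches to box H in its middle part. A match to these letters does not show that they act as the box. Of the 20-base words of SNORA76, 96.6% occur once in the genome on either strand, as do 92.8% of those of Snora31, 78.8% of Snora52 and 46.0% of Snora17. SNORA76 had the highest GC content of the members at 66.7%, against a median of 50% over the 57.

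Box H and the ACA were common but not universal among the members. The ACA was found in 50 of 57 members (87.7%), box H in 54 (94.7%) and both in 47 (82.5%), searched on the gene's strand only. Among the 928 Snora features without a read the ACA was found in 60.9%, box H in 82.3% and both in 51.5%, and over all 1031 Snora features in 63.8%, 83.5% and 54.9%. The 46 features with 1 to 14 reads held the ACA in 93.5% and both boxes in 89.1%. These shares are descriptions and were not tested. Symbols in mixed case, such as Snora62, made up 34 features, of which 24 were members (70.6%). Symbols in capitals numbered 997, of which 33 were members (3.31%). No match says only that these letters were not in the window.

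Most members lay inside a host gene on the same strand. This was so for 55 of 57, in 42 distinct hosts, 47 of them placed in protein-coding hosts, with 38 members in an intron and 17 overlapping an exon of some transcript. The exceptions were SNORA76 and SNORA57, for which the annotation gave no host. The 16 members in genes for ribosomal proteins held 42.9% of the member reads, the 7 in non-coding small nucleolar RNA host genes (Snhg) 23.8%, and the 7 in translation factor genes (Eif and Eef) 3.63%. Of 42186 reads counted in the 42 hosts together, 41163 (97.6%) fell on small RNAs inside them, and Snhg12 alone held 17819 of the 42186. Host by host the share was above 90% in 18 of 42, and G3bp1 had the lowest at 31.25%. Rpsa, a protein of the small ribosomal subunit and the host of Snora62, had 6 reads outside small RNAs of 1455. Rplp2, a protein of the ribosomal stalk and the host of Snora52, had 12 of 955, and Tpt1, the host of Snora31, had 8 of 721.

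Reads were concentrated on few members. The 57 held 8290 reads, which was 97.3% of all reads on Snora features, and their median was 53 reads. Snora62 alone held 16.7% of the member reads, the 5 most-read members 50.7% and the 12 most-read 73.5%. After Snora62 (1388 reads), Snora52 (943), Snora31 (713), Snora17 (594) and SNORA18 (564) came Snora16a (454), Snora61 (408), Snora68 (235), Snora44 (233), SNORA66 (210), Snora7a (192) and SNORA74 (159). A total of 27 members had under 50 reads, and 10 had a read in each of the 12 libraries. Just inside the rule were SNORA13 with 15 reads, SNORA70 on chromosome 6 with 16 and SNORA79 with 17. Just outside were a SNORA62 copy with 14 reads and Snora36b and SNORA8 with 13 each. In WT alone Snora52 was above Snora62 in mean level, at 886 against 754 RPM, and also per length, at 647 against 506 RPM per 100 bases, where Snora31 had 368 and Snora17 had 332.

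In the sum of all 57, 3 of 4 Dicer/Dnmt1 KO libraries were high against library reads, but not against other snoRNAs. The summed level was 1859 RPM at the lowest, 6334 RPM in the median and 9081 RPM at the highest in WT. In Dnmt1 KO it was 4861 and 5808 RPM. In Dicer/Dnmt1 KO it was 11800, 12629, 10579 and 6529 RPM in 1A, 1B, 2A and 2B. The means were 6335 ± 2660 RPM (SD, n = 6), 5335 ± 670 RPM (SD, n = 2) and 10385 ± 2704 RPM (SD, n = 4), and 3 of 4 Dicer/Dnmt1 KO libraries lay above all WT libraries. The table counts of WT libraries were miRNA to 29.5% to 65.7%, those of Dnmt1 KO to 51.3% and 53.3%, those of Dicer/Dnmt1 KO to 6.31% to 12.1%, and RPM of other classes moves with that share. As a share of counts that were not miRNA, members made up 0.891% ± 0.206 (SD, n = 6) in WT, 0.913% ± 0.089 (SD, n = 2) in Dnmt1 KO and 1.12% ± 0.288 (SD, n = 4) in Dicer/Dnmt1 KO, and the groups overlapped. Counts of ribosomal RNA were 0.0880% to 0.914% of the table in WT libraries. Dnmt1 KO had 0.134% and 0.178%, whereas the 4 Dicer/Dnmt1 KO libraries had 1.41% to 2.67%. Protein-coding genes held 17.2% to 30.4% in WT libraries. For them Dnmt1 KO had 23.0% and 23.5%, whereas Dicer/Dnmt1 KO ran from 40.3% to 44.6%. The part of these classes in the summed level was not tested.

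As a share of all snoRNA reads the members were a small and overlapping fraction in the 3 groups. In WT the share was 2.87% at the lowest, 3.76% in the median and 6.41% at the highest. Dnmt1 KO had 4.78% and 6.20%, while Dicer/Dnmt1 KO had 4.50%, 4.42%, 2.74% and 2.71% in 1A, 1B, 2A and 2B. In Dicer/Dnmt1 KO, A and B of a culture lay closer together than the 2 cultures. There the 95% Wilson intervals of 1A and 1B (4.02% to 5.03% and 3.68% to 5.30%) overlapped. They did not reach those of 2A and 2B (2.54% to 2.95% and 2.55% to 2.89%). In every WT culture and in Dnmt1 KO the intervals of A and B did not overlap, as with 2.01% to 4.06% in WT 2A and 5.99% to 6.86% in WT 2B. Such intervals hold counting error alone, because the reads carry no molecular identifiers and may be copies of 1 molecule. The highest WT value was 2B of the E14 2 pair, and without that pair WT ran from 3.10% to 4.16%, below both Dnmt1 KO libraries. Most of the other snoRNA reads lay on box C/D snoRNAs, the class that guides methylation of ribose.

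**Figure D1:**
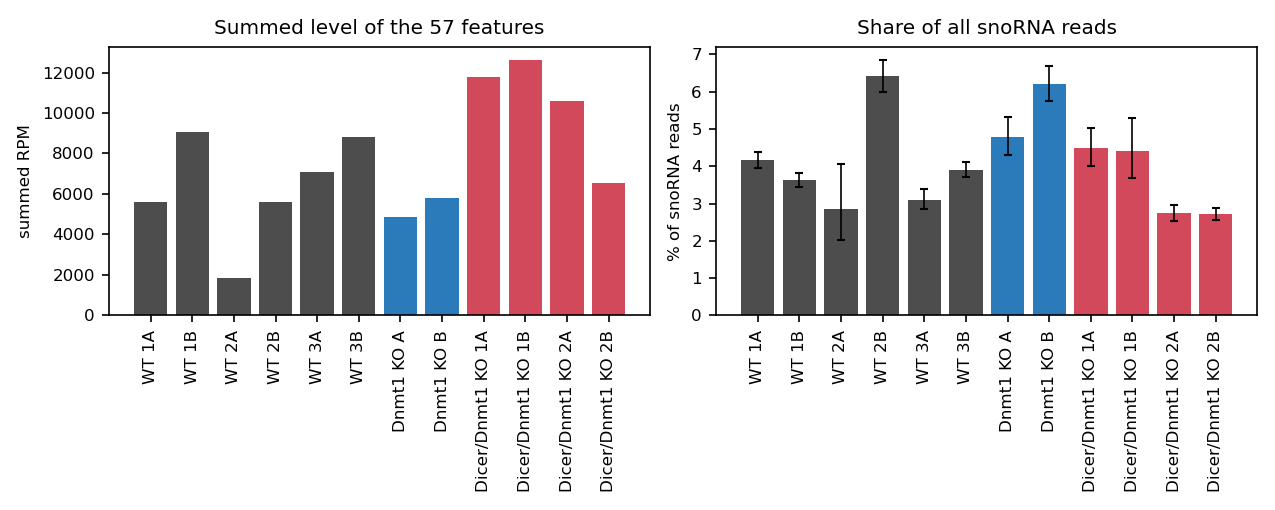
Summed level of the 57 box H/ACA features in RPM (left) and their share of all snoRNA reads in percent with 95% Wilson intervals (right), 1 bar per library and 1 colour per genotype. Dicer/Dnmt1 KO 1A, 1B and 2A stand above all WT libraries in RPM, at 11800, 12629 and 10579, while in the share of snoRNA reads the groups overlap.

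Snora62, from an intron of Rpsa, was the most-read member and the one that differed most upward between Dnmt1 KO and WT. Its level in WT was 496 RPM at the lowest, 511 RPM in the median and 1291 RPM at the highest. Dnmt1 KO had 1788 and 2295 RPM, while Dicer/Dnmt1 KO had 4165, 1952, 2333 and 1015 RPM in 1A, 1B, 2A and 2B. Both Dnmt1 KO libraries lay above all 6 WT libraries, while Dicer/Dnmt1 KO overlapped WT through 2B. The log2 fold change, on TMM-scaled log2(RPM + 10), was 1.72 (SE 0.58, 95% interval 0.47 to 2.96) for Dnmt1 KO against WT, with an adjusted p of 0.108 in limma. Against WT it was 0.75 (SE 0.45) in Dicer/Dnmt1 KO, adjusted p 0.291, and -0.96 (SE 0.61) between Dicer/Dnmt1 KO and Dnmt1 KO, adjusted p 0.385. None of the 3 passed 0.05.

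Snora52, from Rplp2, went the other way in Dnmt1 KO. Its level in WT was 62.0 RPM at the lowest, 946 RPM in the median and 2103 RPM at the highest. Dnmt1 KO had 73.9 and 92.9 RPM, from 5 and 10 reads, while Dicer/Dnmt1 KO had 163, 1148, 536 and 723 RPM. The low WT values were those of the E14 2 pair, 62.0 and 193 RPM, and the other 4 WT libraries lay between 877 and 2103 RPM. The log2 fold change for Dnmt1 KO against WT was -2.44 (SE 0.92, 95% interval -4.44 to -0.45), adjusted p 0.165 in limma. In Dicer/Dnmt1 KO it was -0.88 (SE 0.73) against WT, adjusted p 0.490, and 1.56 (SE 0.98) against Dnmt1 KO, adjusted p 0.377. The groups overlapped in each comparison other than Dicer/Dnmt1 KO against Dnmt1 KO, where 163 RPM, from 4 reads, was the lowest Dicer/Dnmt1 KO value and 92.9 RPM the highest in Dnmt1 KO. Dnmt1 KO overlapped WT through WT 2A alone, whose 62.0 RPM rest on 1 read.

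Within a library the balance of Snora62 and Snora52 needs no scaling, and it spanned a wide range. Reads of Snora62 per read of Snora52 were 0.591, 0.239, 0.468 and 1.20 in WT 1A, 1B, 3A and 3B, and 8 and 6.70 in WT 2A and 2B. They were 24.2 and 24.7 in Dnmt1 KO A and B. In Dicer/Dnmt1 KO they were 25.5, 1.70, 4.35 and 1.40 in 1A, 1B, 2A and 2B. The 4 WT libraries of cultures 1 and 3 were lowest, both Dnmt1 KO libraries nearly equal and high, and the E14 2 pair between them. Dicer/Dnmt1 KO 1A stood beside Dnmt1 KO, apart from its own partner 1B. The pair of features was chosen after its values were seen, so no test is given. The WT 2A ratio rests on 8 reads against 1. The ratios of Dnmt1 KO A, Dnmt1 KO B and Dicer/Dnmt1 KO 1A rest on only 5, 10 and 4 reads of Snora52.

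The same is seen in the share each took of the member reads. Snora52 made up 15.7% of them in WT 1A and 23.2% in WT 1B, but 3.33% and 3.45% in WT 2A and 2B, 1.52% and 1.60% in Dnmt1 KO A and B and 1.38% in Dicer/Dnmt1 KO 1A. In Dicer/Dnmt1 KO 1B it was 9.09%, with a 95% Wilson interval of 5.01% to 15.9%, against 0.540% to 3.50% in 1A. These intervals are a description, since the libraries were picked after their values were seen and reads may be copies. Snora62 made up 36.8% and 39.5% in Dnmt1 KO and between 5.54% and 26.7% in WT.

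**Figure D2:**
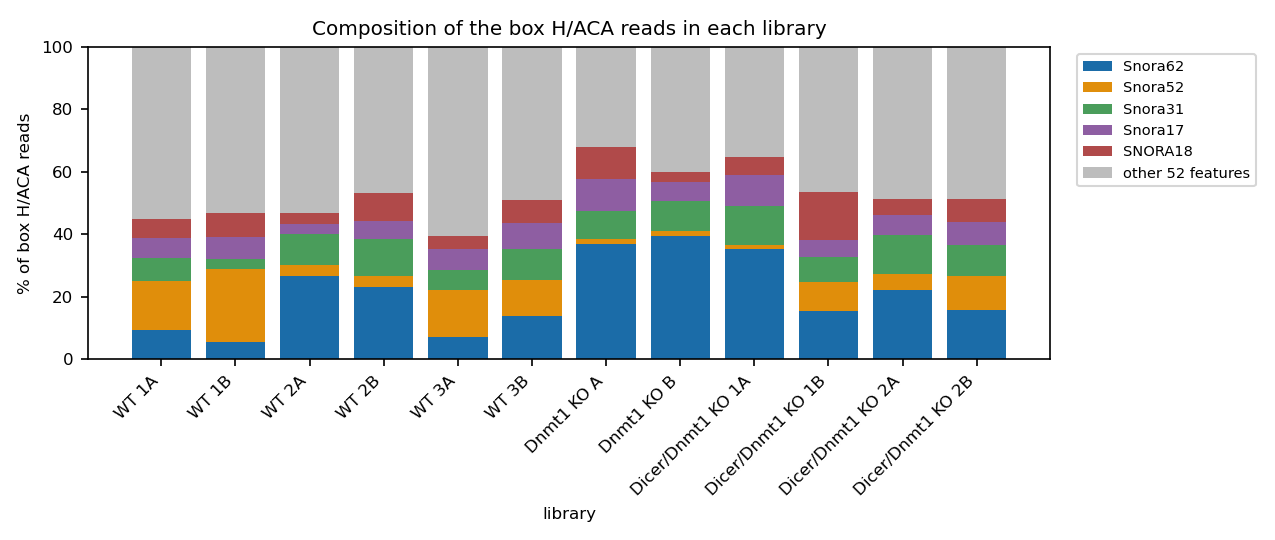
Share of the box H/ACA reads, in percent, taken by each of the 5 most-read features and by the other 52 together, 1 bar per library. Snora62 takes 36.8% and 39.5% in Dnmt1 KO, and Snora52 takes 15.7% and 23.2% in WT 1A and 1B but 3.33% and 3.45% in WT 2A and 2B.

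Snora31, from an intron of Tpt1, and Snora17, from the non-coding Snhg7, gave small fold changes in each comparison. Snora31 was at 186 RPM at the lowest, 428 RPM in the median and 875 RPM at the highest in WT. It was at 443 and 558 RPM in Dnmt1 KO and at 1470, 1033, 1324 and 644 RPM in Dicer/Dnmt1 KO. Its log2 fold changes against WT were 0.39 (SE 0.49) with Dnmt1 KO and 0.47 (SE 0.39) with Dicer/Dnmt1 KO, and between the knockouts 0.08 (SE 0.52), with adjusted p of 0.738, 0.485 and 0.947 in limma. In RPM 3 of 4 Dicer/Dnmt1 KO libraries stood above all WT libraries, a difference that the scaling factors of 1.01 to 1.95 in that group and 0.419 to 1.11 in WT reduce. Snora17 was at 62.0 RPM at the lowest, 426 RPM in the median and 730 RPM at the highest in WT, at 502 and 353 RPM in Dnmt1 KO and at 1143, 689, 678 and 484 RPM in Dicer/Dnmt1 KO. The groups overlapped. It had log2 fold changes of 0.43 (SE 0.55), 0.18 (SE 0.44) and -0.25 (SE 0.59) in the same order, adjusted p 0.743, 0.843 and 0.860. SNORA18, from Taf1d, a factor of RNA polymerase I transcription, had 0.04 (SE 0.66), 0.35 (SE 0.53) and 0.31 (SE 0.71), adjusted p 0.984, 0.739 and 0.858.

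Snora68, and SNORA66 and Snora7a from the ribosomal protein genes Rpl5 and Rpl32, had overlapping groups in WT and Dicer/Dnmt1 KO. Snora68 was at 0 RPM at the lowest, 184 RPM in the median and 263 RPM at the highest in WT, at 103 and 139 RPM in Dnmt1 KO and at 204, 230, 615 and 173 RPM in Dicer/Dnmt1 KO. The more abundant SNORA66 copy was at 55.2 RPM at the lowest, 110.5 RPM in the median and 278 RPM at the highest in WT, at 163 and 335 RPM in Dnmt1 KO and at 490.0, 344, 299.6 and 133 RPM in Dicer/Dnmt1 KO. In limma its log2 fold change was 1.13 (SE 0.63) for Dnmt1 KO against WT, adjusted p 0.375. Snora7a was at 0 RPM at the lowest, 145 RPM in the median and 215 RPM at the highest in WT, at 59.1 and 130 RPM in Dnmt1 KO and at 122, 689, 347 and 173 RPM in Dicer/Dnmt1 KO. The 689 RPM of Dicer/Dnmt1 KO 1B rest on 6 reads.

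Snora16a, Snora61 and Snora44 lie in the same non-coding host, Snhg12, on chromosome 4, and did not keep 1 ratio. In WT 1A they had 65, 63 and 70 reads, and in WT 1B 122, 101 and 43. In Dnmt1 KO A they had 11, 2 and 8 reads and in Dnmt1 KO B 30, 16 and 7. In Dicer/Dnmt1 KO 2B, the deepest of that group, they had 46, 56 and 28. Snora44 was the most-read of the trio in WT 1A and the least-read in WT 1B. Log2 fold changes of Dnmt1 KO against WT were -0.50 (SE 0.51) for Snora16a, -1.12 (SE 1.31) for Snora61 and -0.05 (SE 1.17) for Snora44, adjusted p 0.648, 0.709 and 0.985 in limma. For Dicer/Dnmt1 KO against WT they were -0.35, -0.16 and -0.52, adjusted p 0.636, 0.939 and 0.792, and between the knockouts 0.15, 0.96 and -0.46, adjusted p 0.909, 0.774 and 0.878.

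**Figure D3:**
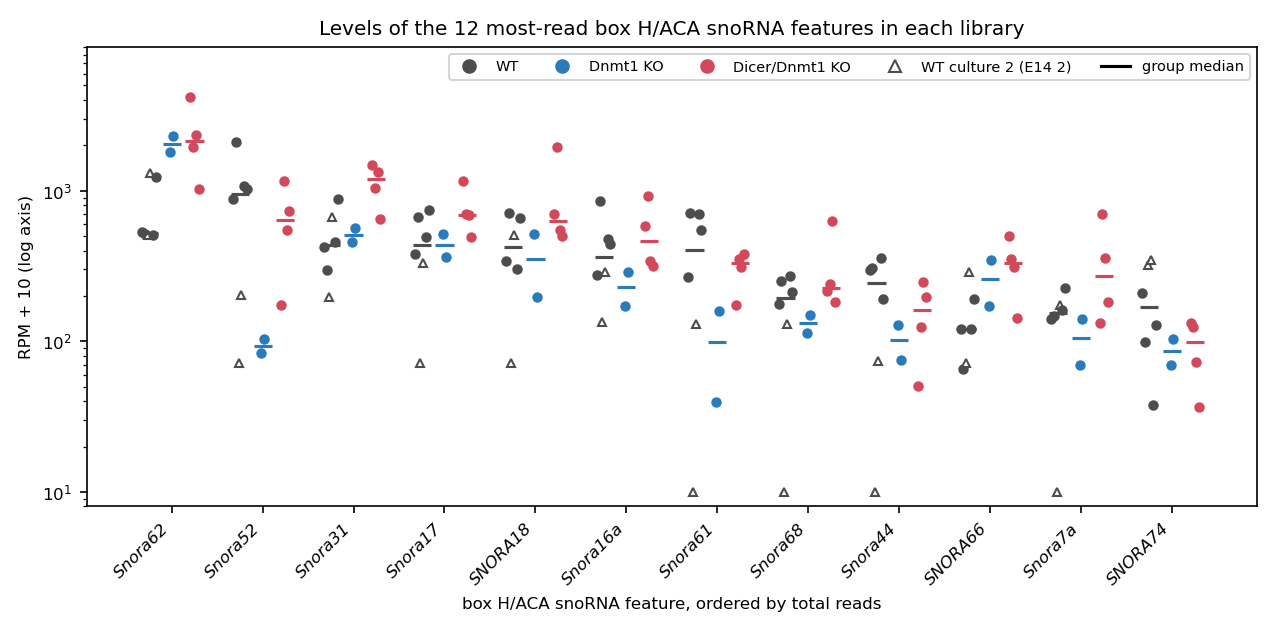
RPM + 10 on a log axis for the 12 most-read features, 1 point per library, open triangles for the E14 2 pair and bars at group medians. Snora62 in Dnmt1 KO lies above all WT points, at 1788 and 2295 RPM, and the E14 2 pair is below the other WT libraries in Snora52, Snora17 and Snora61 and above them in SNORA74.

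The E14 2 pair stood apart from the other WT libraries in several members. Both of its libraries lay below the other 4 in Snora52, Snora17 and Snora61. In Snora68 and Snora44 WT 2A had 0 reads, which allows up to 186 RPM, above the 167 and 181 RPM of the lowest of the other 4. In SNORA74 both lay above them, at 310 and 335 RPM against 27.7 to 200 RPM. WT 2A had 30 member reads in all, and 15 of 57 members had a read in it. Between its A and B the 12 most-read members differed by a median of 2.10 on the log2(RPM + 10) scale, against 0.62 to 0.88 in the other 5 cultures.

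A total of 24 members passed the filter on low values and entered the comparisons. They needed the level of 10 reads at median depth, 111.3 RPM, in 2 or more libraries, and a member that reached it only in the group where it was high could pass, so they do not stand for all 57. In Dicer/Dnmt1 KO 1B, 1 read was 115 RPM and reached that level. SNORA72 and Snora28 passed through 1 read there beside WT 1B. Without Dicer/Dnmt1 KO 1B, 20 members were tested. The other 33 had 15 to 76 reads each and 1160 reads together, 13.99% of the member reads. Their summed level was 945 ± 431 RPM (SD, n = 6) in WT, 577 ± 64.1 RPM (SD, n = 2) in Dnmt1 KO and 1185 ± 204 RPM (SD, n = 4) in Dicer/Dnmt1 KO. WT without the E14 2 pair ran from 848 to 1348 RPM, above the 532 and 623 RPM of Dnmt1 KO. No single one of the 33 had more than 20 reads in a library.

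Against WT, Dicer/Dnmt1 KO had 0 of 24 members called in limma at an adjusted p under 0.05, and 1 at an unadjusted p under 0.05. With voom weights it was 0 as well. Over all 683 tested features, 165 were called (24.2%), and 227 had an unadjusted p under 0.05. The median log2 fold change of the members was 0.23, with 15 above 0 and 9 below, against -0.09 over all features. The 15 include SNORA58 and SNORA1, which passed the filter only through Dicer/Dnmt1 KO libraries, so the tally is a description. For 113 box C/D snoRNAs tested, the median was 0.29, with 2 called. A total of 22 of 24 members had a fold change under 1 in size on the log2 scale, but the 95% intervals were a median of 3.05 log2 units wide.

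SNORA74, from the non-coding Snhg4, and SNORA48, from Nap1l1, a histone chaperone gene, marked the ends of that comparison. SNORA74 was at 27.7 RPM at the lowest, 159 RPM in the median and 335 RPM at the highest in WT, and at 122, 115, 63.1 and 26.5 RPM in Dicer/Dnmt1 KO. Its log2 fold change was -1.66 (SE 0.75, 95% interval -3.27 to -0.05), adjusted p 0.136 in limma, and without WT 3A, the lowest WT library, it was -2.04 with an adjusted p of 0.0394. The E14 2 pair held the highest WT values, 310 and 335 RPM. Without the pair the fold change was -0.64 (adjusted p 0.4657), and without WT 2A it was -1.26 (adjusted p 0.181). SNORA48 was at 0 RPM at the lowest, 70.1 RPM in the median and 193 RPM at the highest in WT, and at 368, 459, 284 and 92.9 RPM in Dicer/Dnmt1 KO. Its log2 fold change was 1.51 (SE 0.74, 95% interval -0.09 to 3.10), adjusted p 0.179 in limma. For both members the groups overlapped. Over 31 alternatives the adjusted p ran from 0.00346 to 0.732 for SNORA74 and from 0.0422 to 0.732 for SNORA48. In Dnmt1 KO, SNORA74 was at 59.1 and 92.9 RPM and SNORA48 at 29.6 and 149 RPM.

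Between Dnmt1 KO and WT, 0 of 24 members were called in limma, against 47 of 683 features (6.88%). At an unadjusted p under 0.05 there were 3 of the 24 members, against 125 of the 683 features. With voom weights 0 members were called. The members' median log2 fold change was -0.01, with 12 above 0 and 12 below, against 0.13 over all features and -0.11 over the 113 box C/D snoRNAs. Snora62 and Snora52, given above, were the ends, and the third member with an unadjusted p under 0.05 was SNORA76. These calls turned on the E14 2 pair. Without it, 7 members were called, which is 29.2% of 24, while 181 of 660 features were called (27.4%), so the members' share stood near that of all features. The 7 were Snora62, with a log2 fold change of 1.97 (adjusted p 0.0137), and, lower in Dnmt1 KO, Snora52 (-3.42, adjusted p 0.00564), Snora61 (-2.46, adjusted p 0.0185), SNORA76 (-2.33, adjusted p 0.0204), SNORA72 (-2.33, adjusted p 0.0274), Snora28 (-2.27, adjusted p 0.0247) and the SNORA63 copy with 101 reads (-1.87, adjusted p 0.0453). In the same setting Dicer/Dnmt1 KO against WT had 1 member called, Snora62 at 1.36 (adjusted p 0.0225), against 195 of 660 features (29.5%).

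The lower members among those 7 had few reads in Dnmt1 KO. SNORA72, from Rpl30, had 1 and 0 reads there and 7, 21, 8 and 8 in WT 1A, 1B, 3A and 3B. Snora28, from the translation factor gene Eif5, had 0 and 2 reads there and 14, 20, 4 and 10 in those WT libraries. SNORA63, from the translation factor gene Eif4a2, had 1 and 3 reads there against 16, 16, 14 and 20. In each of these 3 the level in both Dnmt1 KO libraries was below that of the 4 WT libraries. They were named for being called in that set, so this is a description. The E14 2 libraries WT 2A and 2B had 0 and 2 reads of SNORA72, 0 and 3 of Snora28 and 0 and 6 of SNORA63. With them WT and Dnmt1 KO overlapped in all 3.

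Between Dicer/Dnmt1 KO and Dnmt1 KO, 1 of 24 members was called in limma, SNORA76, which was higher in Dicer/Dnmt1 KO. With voom weights 0 members were called, and SNORA76 had an adjusted p of 0.125. Over all 683 features 156 were called (22.8%), of which 8 were higher (1.17%). The members' median log2 fold change was 0.22, with 17 above 0 and 7 below, against -0.16 over all features, which include 132 miRNAs with a median of -4.18, and 0.46 over the 113 box C/D snoRNAs. Among the 17 were SNORA58 and SNORA1, which passed the filter only through Dicer/Dnmt1 KO libraries. At the end opposite to SNORA76 was Snora74a, from Snhg4, at -0.99 (SE 1.07), adjusted p 0.664 in limma. It was at -0.34 without Dicer/Dnmt1 KO 1A, where it had 0 reads, and Snora62 was next to it at -0.96. Snora74a had 0, 1, 5 and 9 reads in Dicer/Dnmt1 KO and 3 and 7 in Dnmt1 KO.

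SNORA76, on chromosome 11 without an annotated host, had 78 reads in all. In WT it had 28, 8, 1, 3, 4 and 11 reads in 1A, 1B, 2A, 2B, 3A and 3B, or 21.4 RPM at the lowest, 58.7 RPM in the median and 114 RPM at the highest. In Dnmt1 KO it had 1 and 0 reads, or 14.8 and 0 RPM, and 0 reads in Dnmt1 KO B allow a level of up to 27.9 RPM. In Dicer/Dnmt1 KO it had 6, 1, 6 and 9 reads, or 245, 115, 94.6 and 59.7 RPM. The values of both Dnmt1 KO libraries were the lowest, but the 27.9 RPM allowed in Dnmt1 KO B is above the 21.4 RPM of WT 2B. The log2 fold change was 2.29 (SE 0.72, 95% interval 0.73 to 3.85) between the knockouts, adjusted p 0.0346, and that of Dnmt1 KO against WT was -2.20 (SE 0.68), adjusted p 0.078, both in limma. The value between the knockouts was 4.03 with a pseudocount of 1 RPM and 1.09 (adjusted p 0.091) with 50 RPM. That of Dnmt1 KO against WT was -1.22 (adjusted p 0.706) without Dnmt1 KO B. Against WT, Dicer/Dnmt1 KO had 0.09 (SE 0.54), adjusted p 0.938. Pooled over libraries, 22 reads of 247330 in Dicer/Dnmt1 KO against 1 of 175285 in Dnmt1 KO gave a ratio of 15.6, with an exact 95% interval of 2.52 to 643 for counting error alone. The call between the knockouts was lost without Dnmt1 KO B, at 1.39 and an adjusted p of 0.512, and without Dicer/Dnmt1 KO 1A, Dicer/Dnmt1 KO 2B or WT 3B, at adjusted p of 0.0603, 0.0505 and 0.0538. It was also lost under factors taken from box C/D snoRNAs and snRNAs, at 2.04 and an adjusted p of 0.109, and with culture as a random effect, at an adjusted p of 0.125 and an estimated correlation of A and B of 0.302. With A and B summed SNORA76 did not reach the test. Over the 26 alternatives in which SNORA76 was tested, it was called in 15, and the adjusted p ran from 0.00705 to 0.584.

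**Figure D4:**
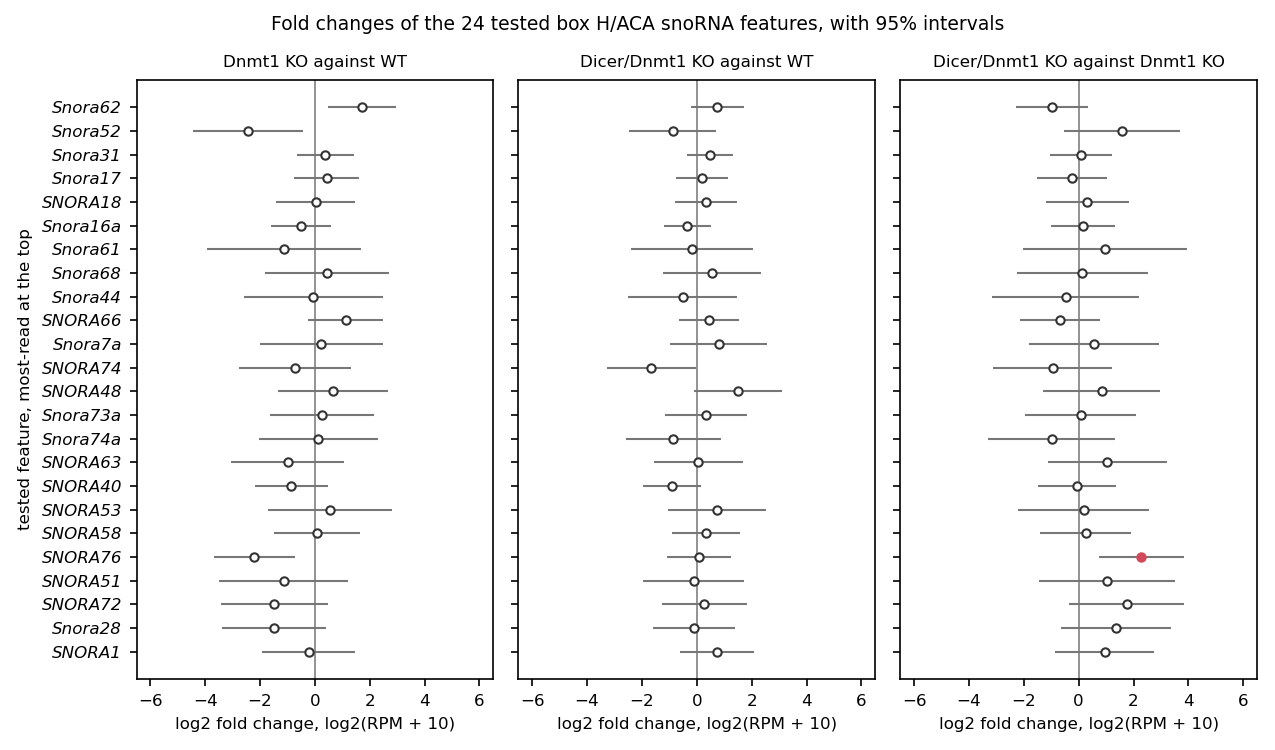
Log2 fold changes on TMM-scaled log2(RPM + 10) with 95% intervals for the 24 tested features, 1 panel per comparison, filled red where the adjusted p in limma was under 0.05. SNORA76 in Dicer/Dnmt1 KO against Dnmt1 KO, at 2.29, is the one filled point, and most intervals cross 0.

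Several members share a sequence, and their reads can be uncertain. The annotated copies of SNORA66 in Rpl5 were identical at 94.7% of 132 aligned positions and had 210 and 70 reads. Snora73a and Snora73b in Rcc1, relatives of the snoRNA that acts in cutting the ribosomal RNA precursor, were identical at 96.6% and had 112 and 31 reads, and SNORA73 in Rpsa was 88.3% identical to Snora73a with 47 reads. Copies of SNORA63 in Eif4a2 were identical at 71.2%, with 101 and 34 reads. The SNORA42 copies in Rpl6 and Odc1 had 42 and 43 reads at 84.7% identity, those of SNORA29 in Tcp1 and G3bp1 had 29 and 20 reads at 85.8%, and 3 copies of SNORA70 had 54, 39 and 16 reads at 76.3% to 79.1%. Snora3 and SNORA3 in Rpl27a were 65.9% identical with 53 and 18 reads. Over the 57 members a median of 80.2% of the 20-base words occurred once in the genome, 12 members had under 50%, and Snora65 had the lowest value at 13.5%. How reads with several positions were placed is not given in the sources used here.

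Genes of the H/ACA pathway gave too few short reads to compare. The core proteins Dkc1, Nop10, Nhp2 and Gar1 had 0 to 9 reads per library together. Among assembly factors, Ruvbl2 had 20 reads and Nolc1 16 in all libraries, and the Cajal body protein Coil had 16. None of these genes was tested. Tert, the protein of telomerase, whose RNA carries an H/ACA domain, had 3 reads, all in WT. Among the small Cajal body RNAs (scaRNAs), which modify spliceosomal RNAs, 14 of 43 features had 15 or more reads and 5 were tested. In Dicer/Dnmt1 KO against WT 1 of 5 was called in limma, against 165 of 683 features (24.2%), and 0 of 5 in each of the other comparisons. The called feature was SCARNA6 at 2.04 (SE 0.69, adjusted p 0.0452). A second tested feature of that name, Scarna6 with 139 reads, was at -0.08 (SE 0.43, adjusted p 0.924) in the same comparison. SCARNA6 had 7, 20, 0, 12, 6 and 13 reads in WT 1A to 3B, 13 reads in each Dnmt1 KO library, and 13, 3, 34 and 30 reads in Dicer/Dnmt1 KO.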

How the data were processed

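As the labels and methods state, the authors trimmed reads with Trim Galore 0.3.5, kept 20 to 24 nt, mapped them with Bowtie2 2.2.6 to NCBIM37 and counted overlaps in SeqMonk. The deposited values are log2 RPM, in which the authors wrote 0 reads as 0.9 read. Whole reads were recovered for 100% of values in the 12 columns (tolerance 0.1 read). Another 89 value columns match none of the series' samples and were left out. Intervals, strands and symbols of all 32101 features matched GENCODE on NCBIM37. A read inside a snoRNA and its host was counted for both. Counting was not split by strand.

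RPM were scaled by TMM over the 683 features that passed the filter and tested as log2(RPM + 10) with limma 3.58.1 (R 4.3.3, mean-variance trend) in 1 model of 3 groups without covariates. Fold changes on this scale understate those of low features. Adjusted p are Benjamini-Hochberg over all 683. The test on the log scale was the main one because the deposited unit is log2 RPM. Tests made for counts, such as DESeq2, were not run, although the recovered reads would have allowed them. The steps were tested on simulated data. The filter took 111.3 RPM in 2 libraries and 15 reads in all. Zero reads allow 3, or 12.2 RPM at the greatest depth and 344 RPM at the lowest. The members and lists were chosen with earlier results of these data known. Named were the 12 most-read members, called members, the largest rise and fall in each comparison, members at the rule's edge, copies of 1 symbol and pathway genes with 15 reads or more. SNORA72, Snora28 and SNORA63 as calls without the E14 2 pair, SCARNA6, and the ratio of Snora62 to Snora52 were chosen after their values were seen. The alternatives tried were other scalings, pseudocounts, filters and weights, A and B joined, blocks, other WT sets and leaving out each library. The sequence of Snora62 and the host of Snora68 are not reported here.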

Additional observations from a re-analysis of the deposited data

Results flagged for a closer look

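Of 40 groups of values checked with Dixon's criterion in WT and Dicer/Dnmt1 KO, 3 held a library far from the others, where chance flags about 1 in 20 groups. SNORA18 was at 1952 RPM in Dicer/Dnmt1 KO 1B, from 17 reads of the library with least depth, against 491 to 694 RPM in the other 3. Snora68 was at 615 RPM in Dicer/Dnmt1 KO 2A, from 39 reads, against 173 to 230 RPM in the other 3. The share of snoRNA reads taken by the box H/ACA members was 6.41% in WT 2B, against 2.87% to 4.16% in the other 5 WT libraries.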

How the results depend on the processing

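The count of members called in Dicer/Dnmt1 KO against WT was 0, and 1 with library reads alone (Snora62) or without the E14 2 pair. It was 4 with the E14 2 pair as the only WT, and 1 without Dicer/Dnmt1 KO 1B and WT 2A, the 2 shallowest (Snora74a, chosen after seeing the data). In these 4 settings the members called were 4.17%, 4.17%, 21.1% and 5% of those tested. Over all features the shares were 29.3%, 29.5%, 28.9% and 29.7% in the same order. Leaving out 1 library at a time gave 0 to 1. For Dnmt1 KO against WT it was 0, but 7 without the E14 2 pair and 3 without the 2 shallowest. Leaving out 1 library of WT or Dicer/Dnmt1 KO gave 0 to 3, with 3 without WT 2A and 2 without WT 2B. In these 4 settings the members called were 29.2%, 15%, 12.5% and 8.33% of those tested. Over all features the shares were 27.4%, 19.8%, 14.5% and 8.44% in the same order. For Dicer/Dnmt1 KO against Dnmt1 KO it was 1 (SNORA76), 2 without the E14 2 pair, and 0 with factors from box C/D snoRNAs and snRNAs, a pseudocount of 50 RPM, no filter, a stricter filter, voom weights, A and B summed, culture as a random effect, only the compared groups, the E14 2 pair as the only WT, or without both Dicer/Dnmt1 KO 1A and 1B (added after seeing the data). The 2 calls without the E14 2 pair were 8.33% of the members tested, against 33.5% of all features. SNORA76 did not reach the test with the stricter filter, with A and B summed or without 1A and 1B. Leaving out 1 library gave 0 to 1. The cause was not tested.

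The log2 fold change of SNORA76 in Dicer/Dnmt1 KO against WT changed sign from 0.09 to -0.011 with box C/D and snRNA factors, -0.12 without WT 2B and -0.11 without Dicer/Dnmt1 KO 1A, ran from -0.12 to 0.40 as 1 library was left out, and that of Snora62 went from 0.75 to -0.0052 with the E14 2 pair as the only WT. Library reads alone moved the median of all features by 0.70 in Dicer/Dnmt1 KO against WT and by 0.91 against Dnmt1 KO. The members' median log2 fold change ran from -0.24 to 0.87 in Dicer/Dnmt1 KO against WT and from -0.58 to 0.60 in Dnmt1 KO against WT. Between the knockouts it ran from -0.32 to 1.14, and it was above that of all features in 29 of 29 alternatives there and in 30 of 31 in Dicer/Dnmt1 KO against WT, but below it in 27 of 29 in Dnmt1 KO against WT. All features include the miRNAs, whose median was -4.18 between the knockouts, -2.79 in Dicer/Dnmt1 KO against WT and 1.40 in Dnmt1 KO against WT. The alternatives reuse the same libraries, so these tallies are a description.

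Same labels did not pair the libraries, since deviations of WT and Dicer/Dnmt1 KO libraries with the same number and letter correlated at -0.23, 0.11, -0.17 and -0.28. With the letter as a block, members called were 0, 0 and 1 in Dicer/Dnmt1 KO against WT, Dnmt1 KO against WT and between the knockouts. With number and letter as a block, 0 of 23 members and 117 features were called in Dicer/Dnmt1 KO against WT, against 0 and 118 in the same 8 libraries without a block.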
